A study of Mus musculus with 4 samples.

Results

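DNA replication and mitosis genes were followed as a panel of 41 genes, out of 31053 genes listed in each count table. The panel was taken from a list chosen with earlier results of these data known. The S set held 19 of the 41 genes, from the helicase gene Mcm2 to the repair gene Ung, and the G2/M set held 22, from Mki67 to Cks2. Single cells were profiled from 4 libraries, 1 each of a subcutaneous MycCaP tumor graft and of stromal/vascular cells of subcutaneous inguinal adipose tissue (SAT), from a control group given PBS and a group given D-CAN. D-CAN is a peptide that targets adipose stromal cells (ASC). The mice were FVB (labelled VFB), fed chow and grafted with MycCaP cells, a line from the prostate cancer of HiMyc mice, in which a probasin promoter drives Myc in the prostate. Neither the labels nor the methods say whether a library pools several mice. With 1 library per group, every difference below compares 2 libraries and not 2 treatments, and no test between groups was possible.

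A dividing cell copies its DNA in S phase and separates the copies in mitosis, the M of G2/M. The genes for the replication helicase, its loading factors and nucleotide supply are switched on by E2F factors as cells leave G1. Those for mitotic cyclins, spindle motors, kinetochore proteins and the ubiquitin machinery that ends mitosis peak later. DREAM, B-MYB and FOXM1 complexes act on them through CHR elements, and the CCAAT boxes of such promoters are bound by NF-Y. In grafted tumors the cancer cells are the main dividing population, while adipose stroma and endothelium of adult mice divide little and lymphocytes divide when activated.

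The sets differed in the letters of their promoters, and 6 promoters of genes named throughout the results are shown. They come from the RefSeq table for GRCm38.p6 and run from 250 bases before to 50 bases after the annotated start. In the S set genes Mcm5 (chr8:75109259-75109558, plus strand), a helicase subunit, and Pclaf (chr9:65890073-65890372, plus strand), a binding partner of the sliding clamp PCNA, capitals mark E2F letters. In the G2/M genes Ccnb1 (chr13:100786437-100786736, minus strand), Ube2c (chr2:164769679-164769978, plus strand), Cdc20 (chr4:118437294-118437593, minus strand) and Top2a (chr11:99024140-99024439, minus strand), capitals mark CHR and CCAAT letters. Only these letters are marked in each set. Left in lower case are 3 CCAAT boxes in Mcm5, 2 in Pclaf and 1 E2F core in Top2a. In Ccnb1, 1 E2F variant overlaps the first marked CCAAT box, so that only the letters it shares with the box are in capitals. Ccnb1 encodes cyclin B1, Ube2c and Cdc20 serve the anaphase-promoting complex, and Top2a untangles DNA before it is separated.
Mcm5: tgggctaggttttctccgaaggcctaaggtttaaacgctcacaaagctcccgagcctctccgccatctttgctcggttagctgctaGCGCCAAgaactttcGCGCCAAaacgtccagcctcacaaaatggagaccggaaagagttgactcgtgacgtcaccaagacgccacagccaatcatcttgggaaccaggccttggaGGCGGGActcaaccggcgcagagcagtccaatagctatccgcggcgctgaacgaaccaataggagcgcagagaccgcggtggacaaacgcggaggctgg
Pclaf: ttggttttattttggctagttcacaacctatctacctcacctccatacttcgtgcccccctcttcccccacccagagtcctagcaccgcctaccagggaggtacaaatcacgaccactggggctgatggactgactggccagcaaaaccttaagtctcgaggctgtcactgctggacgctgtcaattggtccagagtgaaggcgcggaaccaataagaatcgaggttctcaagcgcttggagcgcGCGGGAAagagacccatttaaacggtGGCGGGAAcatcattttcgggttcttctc
Ccnb1: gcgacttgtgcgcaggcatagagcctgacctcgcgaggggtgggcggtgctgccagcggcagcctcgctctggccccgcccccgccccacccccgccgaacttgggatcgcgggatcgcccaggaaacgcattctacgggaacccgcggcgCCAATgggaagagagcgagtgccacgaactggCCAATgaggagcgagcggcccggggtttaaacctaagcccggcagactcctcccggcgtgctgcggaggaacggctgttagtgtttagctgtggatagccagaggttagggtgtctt
Ube2c: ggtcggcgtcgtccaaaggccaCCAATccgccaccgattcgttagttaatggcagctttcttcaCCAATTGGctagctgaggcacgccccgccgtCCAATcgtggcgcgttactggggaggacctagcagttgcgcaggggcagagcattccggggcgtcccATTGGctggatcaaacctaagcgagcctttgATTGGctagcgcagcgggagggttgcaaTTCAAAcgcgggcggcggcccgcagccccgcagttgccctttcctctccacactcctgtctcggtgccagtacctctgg
Cdc20: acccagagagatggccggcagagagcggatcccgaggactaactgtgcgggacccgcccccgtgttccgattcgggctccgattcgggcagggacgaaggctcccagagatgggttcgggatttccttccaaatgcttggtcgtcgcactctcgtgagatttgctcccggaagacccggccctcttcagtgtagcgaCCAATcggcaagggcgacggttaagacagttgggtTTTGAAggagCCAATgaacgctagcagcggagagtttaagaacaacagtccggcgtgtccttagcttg
Top2a: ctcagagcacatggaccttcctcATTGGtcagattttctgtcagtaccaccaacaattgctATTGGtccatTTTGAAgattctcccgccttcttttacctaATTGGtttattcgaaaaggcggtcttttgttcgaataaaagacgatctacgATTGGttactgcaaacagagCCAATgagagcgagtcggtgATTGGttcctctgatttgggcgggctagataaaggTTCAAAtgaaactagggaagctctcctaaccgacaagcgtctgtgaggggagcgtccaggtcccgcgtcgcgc

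The motifs searched, on both strands, were GGCGGGA as the E2F core, TTCCCGC and TTGGCGC as E2F variants that can overlap the core, TTTGAA as CHR, and CCAAT. Of the members, 17 of the S set and 19 of the G2/M set had a promoter in the table, and 15 and 19 had exactly 1, as did 22862 genes in all. CHR letters lay in 13 of the 19 G2/M promoters (68.4%), in 1 of the 15 S promoters (6.67%, Mcm2) and in 18.5% of all promoters. CCAAT letters alone separated the sets less, with 9 of 15 S promoters (60%), 16 of 19 G2/M promoters (84.2%) and 38.2% of all. A promoter with both CHR and CCAAT letters was seen for 12 of 19 G2/M genes (63.2%), 1 of 15 S genes (6.67%) and 7.21% of all genes. Among the 6 shown, Ccnb1 held 2 CCAAT boxes and 0 CHR elements, Cdc20 held 2 and 1, Ube2c held 6 and 1, and Top2a held 6 and 2. E2F variants lay in 8 of 15 S promoters (53.3%), 3 of 19 G2/M promoters (15.8%) and 6.85% of all promoters. The E2F core did not separate the sets, with 5 of 15 (33.3%), 7 of 19 (36.8%) and 11.2% of all promoters. A match describes these letters in this window and is not a binding site.

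Cells were sorted into classes by marker genes: cancer (keratins, claudins), lymphocyte (T/NK and B genes), fibroblast, endothelial and macrophage. A cell entered a class when it had UMIs of at least 2 markers of that class and these held at least 60% of its UMIs over all marker lists. A UMI, or unique molecular identifier, tags 1 captured RNA molecule. The control and D-CAN tumor libraries held 914 and 464 cancer cells, 568 and 357 macrophages, 170 and 107 fibroblasts, 94 and 58 endothelial cells and 19 and 27 lymphocytes. The SAT libraries held 1476 and 1413 lymphocytes, 279 and 76 fibroblasts, 469 and 162 endothelial cells and 57 and 28 macrophages. Libraries held 6667064 to 17996284 UMIs over 1525 to 2851 cells, and 2 to 4 cell barcodes of each were also seen in another library. The D-CAN library was deeper per cell in every class, with a median of 19156.5 against 12034 UMIs in cancer cells and of 5323.5 against 926 UMIs in SAT fibroblasts. The cancer class rested on Krt8 and Cldn3, seen in 93.1% to 99.6% of its cells, while Epcam, Krt18, Cldn7 and Cdh1 had 0 to 2 UMIs per library. Cells with 50% to 70% of their marker UMIs in the class, near the cut, numbered 44 and 6 in the cancer class, 64 and 17 among SAT lymphocytes and 103 and 8 among SAT endothelial cells. A further 969 and 464 tumor cells and 491 and 160 SAT cells entered no class.

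To compare cells at equal depth, each cell was thinned at random to 1000 UMIs and shallower cells were left out. A cell was called S-positive when at least 2 genes of the S set kept a UMI, and G2/M-positive likewise. Shares carry exact binomial (Clopper-Pearson) 95% intervals and summed UMIs exact Poisson 95% intervals. Both cover counting error only. Levels are counts per 1000000 UMIs of the class (CPM), not divided by gene length, since the 3′ assay counts each molecule once.

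In tumor cancer cells both sets were detected in a minority of cells, and the shares were higher in the D-CAN library by margins close to the counting error. S-positive cells made up 67 of 911 cells in the control library (7.35%, 5.74 to 9.25) and 48 of 460 in the D-CAN library (10.4%). The difference was 3.08 percentage points (-0.168 to 6.63), an interval that includes 0. G2/M-positive cells made up 121 of 911 (13.3%, 11.1 to 15.7) and 78 of 460 (17.0%), a difference of 3.67 points (-0.406 to 7.99) that also includes 0. Cells positive for both sets were the part in which the libraries differed beyond counting error, with 39 of 911 (4.28%) and 36 of 460 (7.83%), a difference of 3.55 points (0.798 to 6.64). It was the only one of several overlapping calls whose interval excluded 0, and the intervals are not adjusted for the number of calls. Its value at other depths of thinning is not given. Cells positive for the S set alone (28 and 12 cells, 3.07% and 2.61%) and for the G2/M set alone (82 and 42 cells, 9.0% and 9.13%) were near each other in both libraries. Without thinning, the S-positive share was 54.0% and 70.9% and the G2/M-positive share 48.9% and 64.0%, gaps several times those at equal depth. Tumor cells that entered no class had 6.83% and 7.47% S-positive and 14.4% and 16.9% G2/M-positive cells, close to the cancer class.

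**Figure D1:**
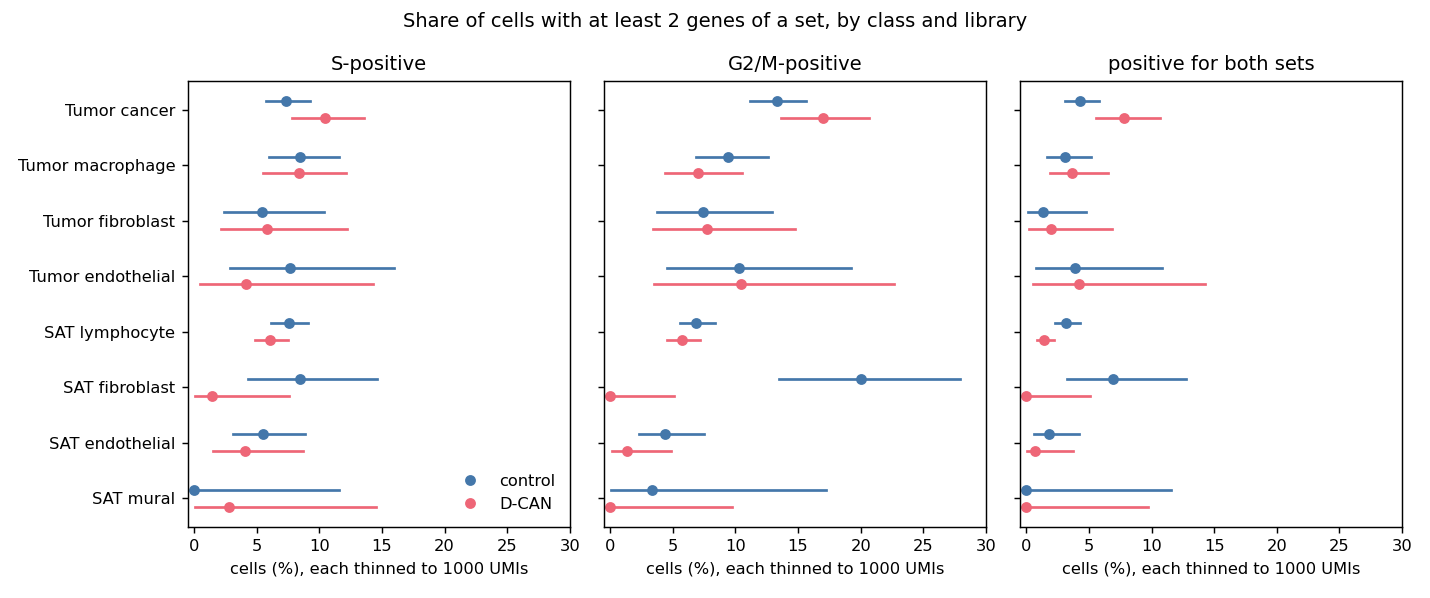
Share of cells, in percent, called S-positive, G2/M-positive and positive for both sets at 1000 UMIs per cell, by class and library, with bars for exact binomial 95% intervals. SAT mural cells are drawn, and tumor lymphocytes and SAT macrophages are not. For S-positive and G2/M-positive cells, the control and D-CAN intervals overlap in the classes with most cells. SAT fibroblasts stand apart with 26 of 130 G2/M-positive control cells and 0 of 71 D-CAN cells. For cells positive for both sets, SAT lymphocytes differ by -1.81 points (-3.06 to -0.615).

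Tumor macrophages had shares of S-positive cells near those of the cancer class. The S-positive share was 8.49% (36 of 424) in the control and 8.36% (25 of 299) in the D-CAN library, a difference of -0.129 points (-4.34 to 4.35). The G2/M-positive share was 9.43% (40 cells) and 7.02% (21 cells), a difference of -2.41 points (-6.54 to 1.96), and for cells positive for the G2/M set alone it was 6.37% and 3.34%, a difference of -3.02 points (-6.28 to 0.431). Tumor fibroblasts had 8 of 148 and 6 of 103 S-positive cells (5.41% and 5.83%) and 11 and 8 G2/M-positive cells (7.43% and 7.77%). Tumor endothelial cells had 6 of 78 and 2 of 48 S-positive and 8 and 5 G2/M-positive cells. The few tumor lymphocytes had the highest shares at equal depth, with 5 of 9 and 4 of 16 cells S-positive and 3 of 9 and 9 of 16 G2/M-positive. Thinning left out 10 and 11 tumor lymphocytes as too shallow. Without thinning 31.6% and 25.9% were S-positive and 36.8% and 40.7% G2/M-positive. Among the thinned lymphocytes, 1 cell held 28.6% and 19.5% of the S UMIs and 32.3% and 35.0% of the G2/M UMIs. In these 4 classes the intervals of the 2 libraries overlapped for both calls.

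In SAT lymphocytes, the S-positive cells were 97 of 1284 (7.55%) in the control and 79 of 1301 (6.07%) in the D-CAN library, a difference of -1.48 points (-3.49 to 0.515). G2/M-positive cells were 6.85% (88 cells) and 5.76% (75 cells), a difference of -1.09 points (-3.03 to 0.842). As in the cancer class, the cells positive for both sets were where the libraries differed beyond counting error, here in the other direction, with 41 cells (3.19%) and 18 cells (1.38%), a difference of -1.81 points (-3.06 to -0.615). This was again the only one of the overlapping calls whose interval, not adjusted for their number, excluded 0. Without thinning the same share was 9.15% and 9.84%. In T/NK cells it was 3.70% and 1.32% at equal depth, a difference of -2.39 points (-4.28 to -0.628), and in B cells 2.73% and 1.30%, a difference of -1.43 points (-3.20 to 0.256).

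In SAT fibroblasts the G2/M-positive share was lower in the D-CAN library, by a margin that varied with the depth at which cells were compared. G2/M-positive cells were 26 of 130 (20%) in the control library and 0 of 71 in the D-CAN library, where a count of 0 allows a share of up to 4.23%. The difference was -20 points (-27.9 to -11.8). S-positive cells were 11 of 130 (8.46%) and 1 of 71 (1.41%), a difference of -7.05 points (-13.4 to 0.407). Thinning left out 149 control and 5 D-CAN fibroblasts as too shallow, and without thinning the G2/M-positive share was 13.6% and 3.95%, a difference of -9.67 points. At 500 UMIs per cell the difference was -8.96 points (-12.9 to -3.31). At 2000 UMIs it was -6.98 points (-17.5 to 2.21), with 5 of 58 and 1 of 61 cells, an interval that includes 0. SAT endothelial cells had 5.47% and 4.08% S-positive cells and 4.38% (12 of 274) and 1.36% (2 of 147) G2/M-positive cells, a difference of -3.02 points (-6.38 to 1.03). SAT macrophages had 6 of 40 and 1 of 27 S-positive and 7 of 40 and 3 of 27 G2/M-positive cells.

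Cell types expected to divide little were read for comparison. Neutrophils, which no longer divide, were S-positive in 0 of 4, 0 of 4, 0 of 8 and 0 of 19 cells in the tumor control, tumor D-CAN, SAT control and SAT D-CAN libraries. Their G2/M calls were 2 of 4, 0 of 4, 0 of 8 and 4 of 19. Over all neutrophils the G2/M set stood at 3984, 1798, 1051 and 4191 CPM. Among the thinned cells, 1 cell held 81.8%, 81.8%, 50% and 71.2% of the G2/M UMIs. This small class was thus not free of the G2/M set and gives no level for background RNA. SAT mural cells had 0 of 30 and 1 of 36 S-positive and 1 of 30 and 0 of 36 G2/M-positive cells. Tumor mural cells were not as low, with 2 of 14 and 0 of 4 S-positive and 4 of 14 and 1 of 4 G2/M-positive cells. Their G2/M set stood at 905 and 2308 CPM, and 1 thinned cell held 37.8% and 93.1% of its UMIs in the control and D-CAN libraries. In tumor macrophages the cancer genes Cldn3 and Krt8 stood at 3.06% to 7.12% of their level in cancer cells. The S set stood at 111% and 118% and the G2/M set at 96.6% and 62.4% of the cancer level in the control and D-CAN libraries. The part of RNA from other cells in these levels was not tested.

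**Figure D2:**
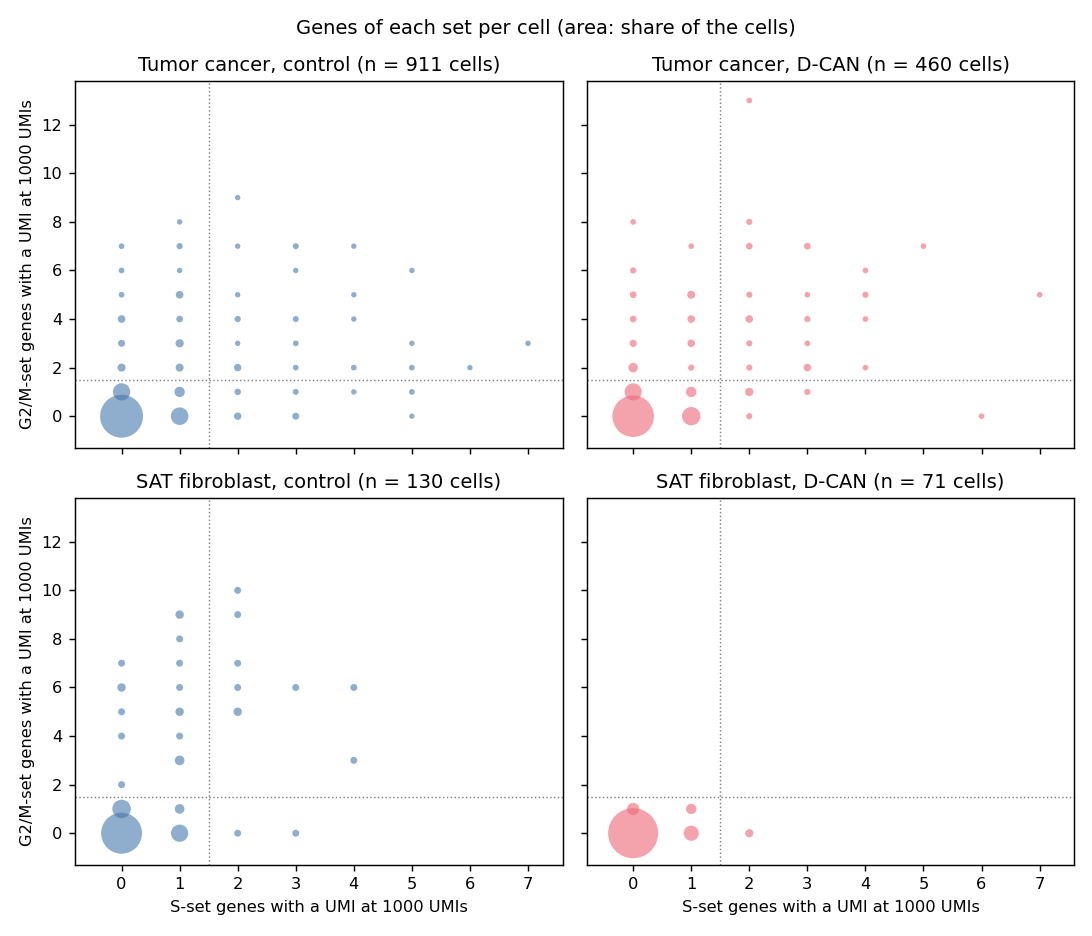
Number of S-set genes (x axis) and G2/M-set genes (y axis) with a UMI per cell at 1000 UMIs, for tumor cancer cells and SAT fibroblasts in the control and D-CAN libraries. The area of a point is the share of cells and the dotted lines mark the threshold of 2 genes. No SAT fibroblast of the D-CAN library lies above the G2/M line, against 26 of 130 in the control library.

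Summed over all cells of a class without thinning, both sets stood higher in the D-CAN cancer cells, the G2/M set by more when 2 markers were required. The G2/M set stood at 868 CPM (851 to 886) in the control and 1100 CPM (1079 to 1122) in the D-CAN library, a log2 ratio of 0.34 (0.30 to 0.38). The S set stood at 456 CPM (444 to 469) and 496 CPM (481 to 510), a log2 ratio of 0.12 (0.06 to 0.18). When cells needed 3 cancer markers instead of 2, the G2/M log2 ratio was 0.06 and the S ratio 0.25, and the S share of all member UMIs, 34.4% in the control and 31.1% in the D-CAN cells of the class, was then 2.84 points higher in the D-CAN library. The G2/M-positive cells, at equal depth, held 76.7% and 83.4% of the G2/M UMIs but 13.6% and 17.8% of all UMIs of the class. The S-positive cells held 41% and 46.9% of the S UMIs. Marker genes of fibroblasts summed to 35.3 and 14.0 CPM in the cancer class and those of macrophages to 26.9 and 13.3 CPM. Without cells that carried at least 2 markers of a second class, the G2/M ratio was 0.44 and 7 members were higher by 1.5-fold in place of 3. The share of all genes under this filter is not given.

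Of the 41 members in cancer cells, 3 were higher by 1.5-fold or more in the D-CAN library and 0 lower, against 3.33% of the 10837 genes tested that were higher and 2.98% that were lower. Only genes that reached 20 UMIs in the sum of the 2 libraries entered this count, and 0.5 UMI was added to each gene's sum before the ratio. The median log2 ratio was 0.08 over the S set, with 11 of 19 genes above 0, 0.32 over the G2/M set, with 20 of 22 above 0, and 0.04 over all genes. When cells needed 3 cancer markers, 5 members were higher and 3 lower, and the G2/M median was 0.07. The share of all genes at that gate is not given.

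The 3 members past 1.5-fold were all G2/M genes. Ccna2, cyclin A2, which drives Cdk2 and Cdk1 through S phase and G2, stood at 17.9 CPM in the control and 30.2 CPM in the D-CAN library, a log2 ratio of 0.76 (0.49 to 1.03). Kif20b, a kinesin of cell division, stood at 7.91 and 13.0 CPM (log2 ratio 0.72, 0.31 to 1.13), and Ube2c at 47.8 and 72.2 CPM (0.59, 0.43 to 0.76). Next came Aurka, the kinase of the spindle poles, at 9.89 and 14.4 CPM (0.54, 0.16 to 0.92), and the S gene Tk1, thymidine kinase, at 9.08 and 13.0 CPM (0.52, 0.13 to 0.92). The intervals of all 5 genes lay above 0.

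The lowest ratios in cancer cells belonged mostly to replication genes, and the interval of each included 0. Uhrf1, which reads half-methylated DNA behind the fork, stood at 10.2 and 8.22 CPM, a log2 ratio of -0.30 (-0.75 to 0.13). Bub1, a spindle checkpoint kinase and the only mitotic gene of this group, had -0.25, Gins2 of the helicase -0.25, Mcm3 -0.24 and Mcm4 -0.23. The helicase subunit Mcm5 stood at 16.0 and 15.8 CPM (-0.02, -0.35 to 0.30), and the sliding clamp gene Pcna at 23.3 and 24.6 CPM (0.08, -0.18 to 0.34).

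The most abundant members in cancer cells were partly genes with roles beyond the cycle. Hmgb2, a chromatin protein of the G2/M set, stood at 277 and 337 CPM (log2 ratio 0.28, 0.21 to 0.36), Cks2, a small partner of Cdk1, at 78.3 and 105 CPM (0.42, 0.29 to 0.56), and Top2a at 58.9 and 76.8 CPM (0.38, 0.23 to 0.54). In the S set the leading genes were Slbp, which binds histone mRNAs, at 61.5 and 69.8 CPM, Rrm2 of ribonucleotide reductase at 56.2 and 62.7 CPM, Mcm7 at 47.8 and 45.4 CPM, and Pclaf at 45.0 and 64.2 CPM. Pclaf, with a log2 ratio of 0.51 (0.34 to 0.69), was the S gene nearest to Tk1. Mki67, which coats mitotic chromosomes and gives the Ki67 antigen, stood at 31.6 and 40.6 CPM (0.36, 0.15 to 0.58). Mki67 and Top2a were higher and Pcna and Mcm5 were within counting error of each other between these libraries.

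**Figure D3:**
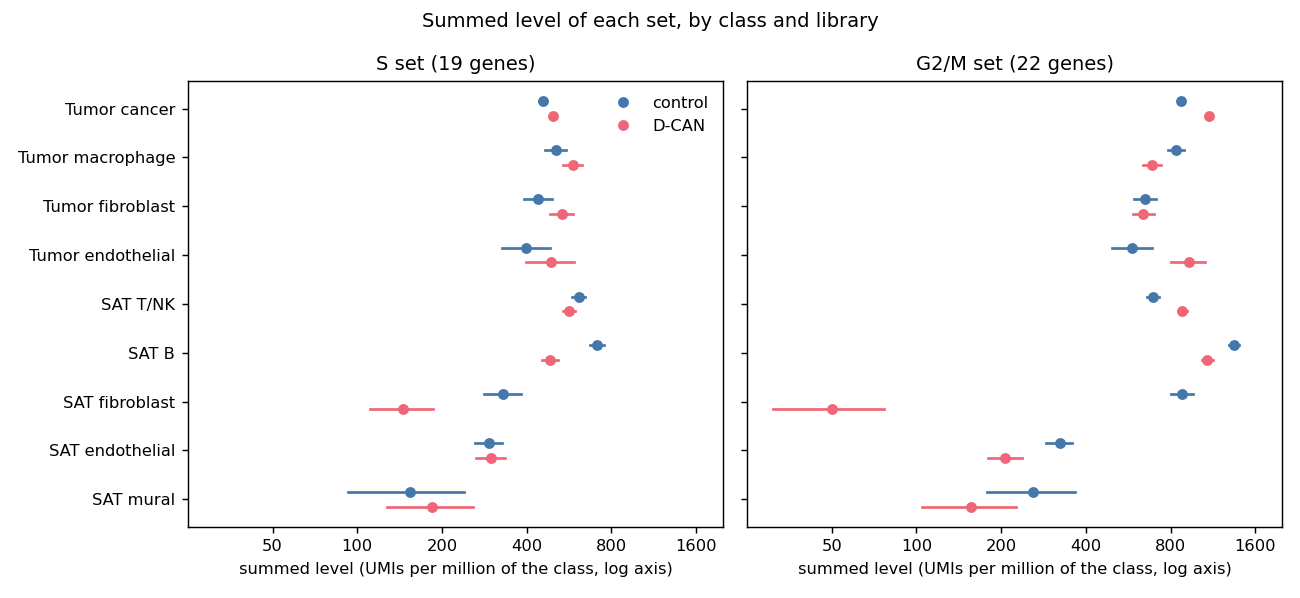
Summed level of the S set and of the G2/M set in CPM (log axis), by class and library, with bars for exact Poisson 95% intervals. In cancer cells the G2/M set stood at 868 CPM in the control and 1100 CPM in the D-CAN library, and in SAT fibroblasts at 881 and 50 CPM.

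Tumor macrophages gave a different order of the sets. The S set stood at 508 and 583 CPM (log2 ratio 0.20, 0.03 to 0.37) and the G2/M set at 839 and 686 CPM (-0.29, -0.43 to -0.15). As a mean of each cell's own CPM the ratios were 0.02 for the S set and -0.11 for the G2/M set. The S share of member UMIs was 37.7% in the control and 46.0% in the D-CAN library. Of 36 members tested, 4 were higher by 1.5-fold or more and 8 lower, against 6.11% and 9.08% of all genes tested. Among members with at least 50 UMIs, 2 were higher and 3 lower, and the share of all such genes is not given. The median was 0.31 over 18 S genes, 14 of them above 0, and -0.31 over 18 G2/M genes, 13 of them below 0, with 0.01 over all genes.

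All 8 members lower by 1.5-fold were mitotic. Cenpa, the histone H3 of the centromere, stood at 82.9 CPM in the control and 50 CPM in the D-CAN macrophages, a log2 ratio of -0.73 (-1.26 to -0.22). Ube2c stood at 53.4 and 25.9 CPM (-1.03, -1.76 to -0.35) and the kinetochore gene Cenpf at 42.0 and 19.2 CPM (-1.11). The others, Cenpe, Cdc20, Kif11, Ccnb1 and Ccnb2, had 4 to 19 UMIs per library. Top2a stood at 68.6 and 51.9 CPM (-0.40, -0.94 to 0.13), while Mki67 stood at 44.8 and 50 CPM (0.16), Hmgb2 at 255 and 254 CPM, Cks2 at 47.7 and 48.0 CPM and Cdk1, the mitotic kinase, at 33.4 and 33.6 CPM. The mitotic set was therefore not uniformly lower in these cells. On the replication side, Mcm5 stood at 18.1 and 41.3 CPM (1.17, 0.38 to 2.05), Mcm6 at 21.0 and 31.7 CPM and the licensing gene Cdt1 at 14.3 and 23.1 CPM, whereas Pcna (82.0 and 72.1 CPM, -0.19) and Slbp (72.5 and 60.5 CPM, -0.26) were not higher. Kif20b was the mitotic gene among the 4 higher ones, with 10 and 17 UMIs.

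**Figure D4:**
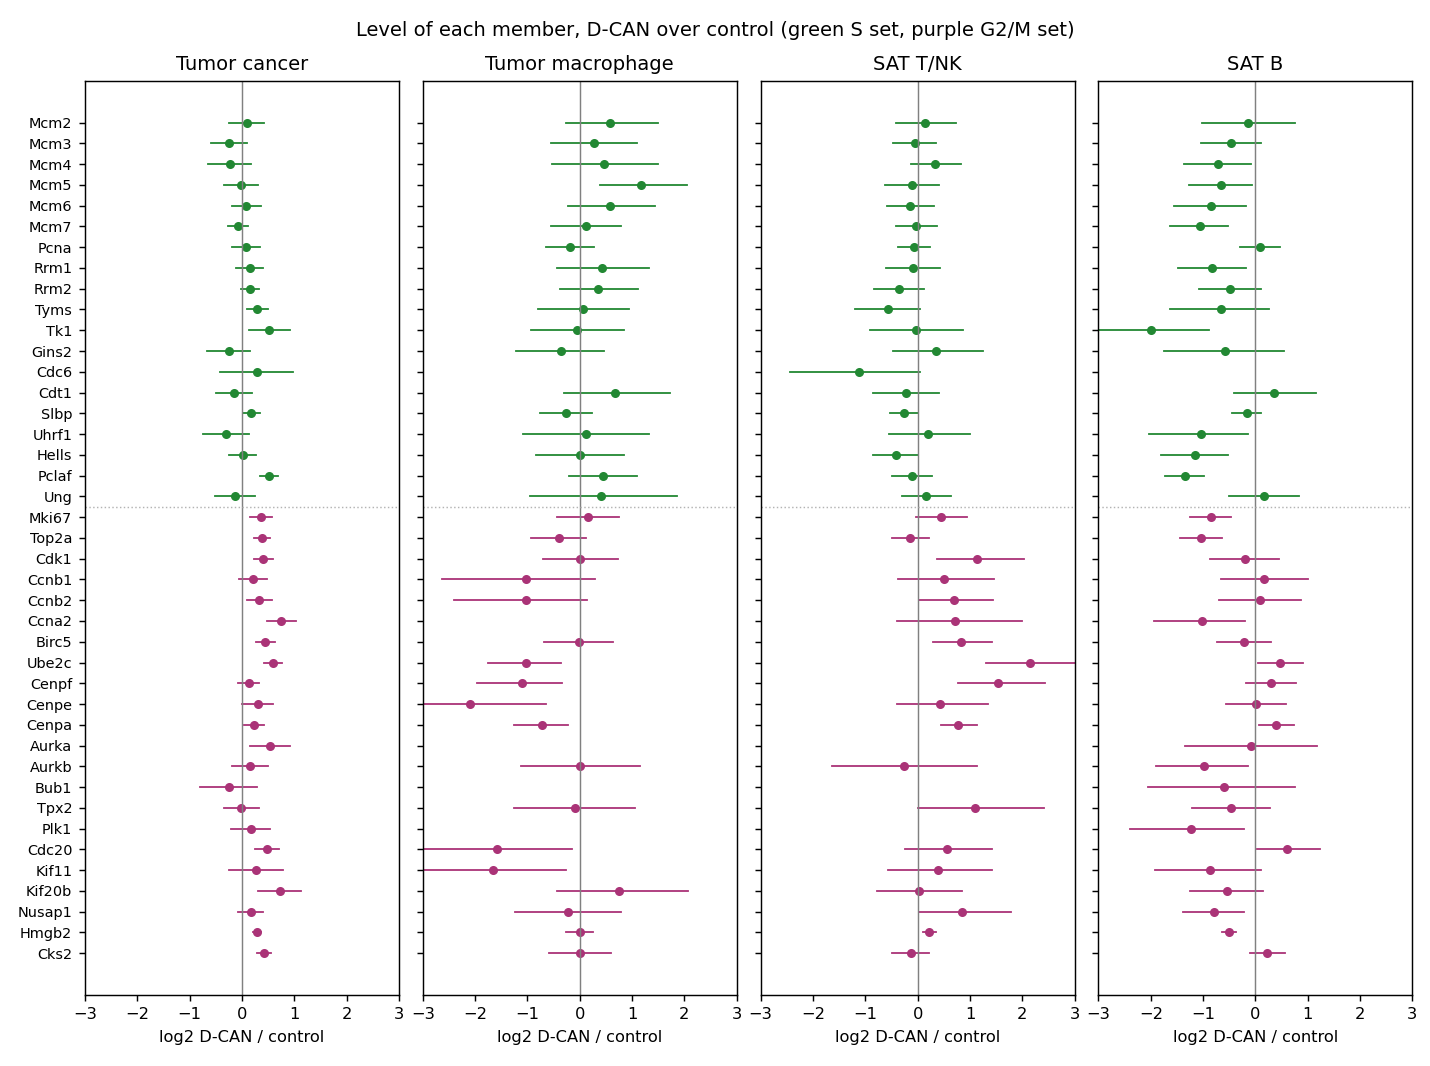
Log2 ratio, D-CAN over control, of each member with at least 20 UMIs over both libraries in cancer cells, tumor macrophages, and SAT T/NK and B cells, with 95% intervals (some run past the edge of the axis, which spans -3 to 3) and a dotted line between the S set and the G2/M set. Members of the G2/M set lie mostly above 0 in cancer and T/NK cells and mostly below 0 in macrophages and B cells.

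In tumor fibroblasts the sets differed little as sums. The S set stood at 440 and 534 CPM (log2 ratio 0.28, 0.07 to 0.49), but the ratio was -0.07 when 80% of marker UMIs were required for the class and -0.18 as a mean of each cell's own CPM, so its sign was not stable. The G2/M set stood at 649 and 641 CPM (-0.02, -0.20 to 0.16), and 1 cell held 31.2% of the G2/M UMIs of the D-CAN library. Without the top cell of each library the G2/M ratio was -0.35. Of 32 members tested, 7 were higher by 1.5-fold (Mcm3, Mcm5, Mcm6, Rrm2, Mki67, Cenpf and Cenpe) and 3 lower (Tk1, Birc5 and Cenpa), against 7.58% and 10.1% of all genes. Mki67 stood at 15.4 and 34.5 CPM (1.13, 0.13 to 2.32) and Mcm5 at 9.77 and 26.2 CPM (1.36, 0.15 to 2.89). Top2a stood at 55.8 and 59.6 CPM, Pcna at 39.1 and 36.9 CPM, Hmgb2 at 137 and 133 CPM and Cks2 at 75.4 and 88.1 CPM, all within counting error. Tyms, thymidylate synthase, at 54.4 and 65.5 CPM and Pclaf at 58.6 and 63.1 CPM led the S set in both libraries.

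Tumor endothelial cells had a G2/M set of 585 and 928 CPM (log2 ratio 0.66, 0.36 to 0.98) and an S set of 399 and 487 CPM (0.29, -0.12 to 0.69). Single cells carried much of the former, with 20.3% of the control and 31.7% of the D-CAN G2/M UMIs in 1 cell each, and without these cells the ratio was 0.35. Of 9 members tested, Pclaf and Mki67 were higher and Pcna lower by 1.5-fold, against 13.7% and 12.8% of all genes. Mki67 had 8 and 16 UMIs (30.4 and 72.8 CPM), Top2a 68.4 and 77.4 CPM, Pcna 64.6 and 31.9 CPM, Mcm5 11.4 and 13.7 CPM and Hmgb2 152 and 214 CPM. Plk1, a mitotic kinase, was at 0 in the control library, and Mcm4, Gins2, Cdc6, Ung and Bub1 were at 0 in the D-CAN library. The share of all genes at 0 is not given. The tumor lymphocytes, with 19 and 27 cells, had the highest sums of the 5 classes, with an S set of 2121 and 1649 CPM and a G2/M set of 3579 and 4983 CPM, and with Mki67 at 464 and 333 CPM, Top2a at 398 and 259 CPM, Pcna at 265 and 92.6 CPM and Hmgb2 at 1392 and 2260 CPM. In them 3 of 6 members tested were higher and 1 lower by 1.5-fold, against 15.3% and 17.9% of all genes, and Ccnb2, Bub1, Tpx2 and Cdc20 were at 0 in the control and Cdc6 in the D-CAN library.

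In SAT lymphocytes the S set was lower in the D-CAN library and the G2/M set was not. The S set stood at 653 and 536 CPM (log2 ratio -0.29, -0.36 to -0.21) and the G2/M set at 964 and 978 CPM (0.02, -0.04 to 0.08). Of the 41 members, 4 were higher by 1.5-fold (Ube2c, Cenpf, Cenpa and Cdc20) and 7 lower (Pclaf, Hells, Tk1, Cdc6, Aurkb, Bub1 and Plk1), against 3.63% and 6.67% of all genes. The S median was -0.34, with 16 of 19 genes below 0, the G2/M median 0.04 and the median of all genes -0.03. As a mean of each cell's own CPM, the G2/M ratio was -0.29 and 18 members were lower and 1 higher, so these values depended on how deep cells were weighted. The share of all genes at this scaling is not given.

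The T/NK and B cells behind this sum went different ways in the summed level of the G2/M set, a difference between ratios that was not tested. In T/NK cells (760 and 769 cells) the G2/M set stood at 694 and 881 CPM (log2 ratio 0.34, 0.25 to 0.43) and the S set at 613 and 566 CPM (-0.11, -0.22 to -0.01). In B cells (693 and 640 cells) the G2/M set stood at 1349 and 1082 CPM (-0.32, -0.41 to -0.23) and the S set at 714 and 483 CPM (-0.56, -0.69 to -0.44). The T/NK ratio depended on deep cells and was -0.17 as a mean of each cell's own CPM, and the B ratio was then -0.53. At equal depth the G2/M-positive share was lower in the D-CAN library in both, with intervals that included 0. It was 7.10% and 6.43% in T/NK cells, a difference of -0.666 points (-3.50 to 2.14). In B cells it was 6.75% and 4.89%, a difference of -1.87 points (-4.62 to 0.865). The top cell held 12.2% of the G2/M UMIs of the D-CAN T/NK cells and 19.7% of those of the D-CAN B cells. In T/NK cells 9 of 38 members were higher and 1 lower by 1.5-fold, against 5.24% and 6.58% of all genes, and in B cells 1 of 40 was higher and 18 lower, against 5.58% and 10.1%.

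The mitotic genes higher in T/NK cells of the D-CAN library were led by Ube2c at 5.25 and 24.0 CPM (log2 ratio 2.15, 1.30 to 3.21), Cenpf at 7.43 and 22 CPM (1.54) and Cdk1 at 7.87 and 17.7 CPM (1.14). Birc5, survivin of the chromosomal passenger complex, stood at 17.5 and 31.3 CPM (0.83, 0.29 to 1.41) and Cenpa at 45.5 and 78.0 CPM (0.78, 0.44 to 1.13). Mki67 stood at 25.4 and 34.7 CPM (0.45, -0.03 to 0.94), Top2a at 52.9 and 48.0 CPM (-0.14), Pcna at 72.1 and 68.7 CPM (-0.07) and Mcm5 at 26.7 and 24.7 CPM (-0.11). The last 4 were within counting error between the T/NK libraries.

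In B cells both sets held genes with large gaps. Pclaf stood at 118 CPM in the control and 46.1 CPM in the D-CAN library (log2 ratio -1.35, -1.73 to -0.98), Mcm7 at 49.5 and 23.6 CPM (-1.06, -1.63 to -0.53), Top2a at 93.5 and 45.6 CPM (-1.03, -1.43 to -0.65) and Mki67 at 89.3 and 49.2 CPM (-0.86, -1.25 to -0.48). Nusap1, a spindle microtubule gene, had -0.79 and Hmgb2 -0.51, at 607 and 426 CPM. Cdc20, which starts the exit from mitosis, was the exception in summed level at 23.5 and 36.1 CPM (0.61, 0.03 to 1.22). It was followed by Ube2c at 45.2 and 62.8 CPM (0.47, 0.05 to 0.91) and Cenpa at 74.2 and 97.9 CPM (0.40, 0.06 to 0.74). Without thinning, the share of B cells with a UMI was lower in the D-CAN library for Cdc20 (2.16% and 1.41%) and Ube2c (2.02% and 1.09%). For Cenpa that share was higher. At equal depth, Cdc20 was seen in 4 of 622 control and 5 of 614 D-CAN cells, Ube2c in 7 and 3 and Cenpa in 40 and 37. The higher sums of Cdc20 and Ube2c were thus not matched by a larger share of cells without thinning. Pcna stood at 63.9 and 68.1 CPM (0.09) and Mcm5 at 35.0 and 22 CPM (-0.66, -1.28 to -0.07).

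Over all SAT lymphocytes Ube2c stood at 21.9 and 40.2 CPM (log2 ratio 0.88, 0.51 to 1.26), Cenpf at 20.6 and 33.1 CPM (0.68), Cenpa at 57.3 and 86.3 CPM (0.59), Cdc20 at 14.8 and 22.3 CPM (0.59) and Ccnb2, cyclin B2, at 13.3 and 18.5 CPM (0.47, -0.03 to 0.99). At the other end stood Pclaf at 74.6 and 44.1 CPM (-0.76, -1.02 to -0.50), the chromatin remodeller gene Hells at 39.7 and 25.2 CPM (-0.66), Tyms at 18.8 and 12.8 CPM (-0.56), Top2a at 69.3 and 49.5 CPM (-0.48, -0.74 to -0.23) and Mcm7 at 45.7 and 34.9 CPM (-0.39). Mki67 stood at 51.7 and 43.5 CPM (-0.25, -0.53 to 0.03), Pcna at 68.6 and 68.4 CPM, Mcm5 at 29.9 and 23.6 CPM (-0.34, -0.73 to 0.04), Hmgb2 at 482 and 452 CPM, Cks2 at 66.1 and 68.0 CPM and Slbp at 111 and 94.4 CPM.

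SAT fibroblasts of the D-CAN library lacked most of the mitotic set. It stood at 881 CPM in the control and 50 CPM in the D-CAN library, a log2 ratio of -4.14 (-4.84 to -3.51), and the S set at 330 and 145 CPM (-1.18, -1.63 to -0.76). In the D-CAN library 17 of 22 G2/M genes and 6 S genes (Rrm2, Tk1, Gins2, Uhrf1, Pclaf and Ung) were at 0. The share of all genes at 0 is not given. Some of these members were also scarce in the control library, with 1 UMI for Uhrf1, 2 for Ung, 3 for Bub1 and 4 for Aurkb. By 1.5-fold, 1 of 11 members tested was higher and 10 were lower, against 14.1% and 15.6% of all genes. Members entered this count by their UMIs summed over both libraries. Pclaf, Top2a, Cdk1, Birc5, Ube2c, Cenpf, Cdc20 and Cks2 reached the required sum through the control library alone. With 0 UMIs in the D-CAN library they could enter only as lower, so the count of 10 does not test their direction. A count of 0 in that library was read against a floor of 3 UMIs, which is 7.14 CPM. Control levels were 12.6-fold this floor for Cks2 (48 UMIs), 9.97-fold for Top2a and Ube2c (38 UMIs each) and 9.71-fold for Pclaf (37 UMIs). They were 7.08-fold for Birc5 (27 UMIs) and 4.20-fold for Mki67 (16 UMIs). These folds take each UMI as independent and are not lower bounds over cells. At equal depth, 26 of 130 control cells held 89.2% of the control G2/M UMIs. Hmgb2, also used outside the cycle, stood at 199 and 33.3 CPM (-2.53, -3.49 to -1.77). Slbp at 37.5 and 66.7 CPM (0.82, -0.05 to 1.74), Pcna at 37.5 and 23.8 CPM (-0.62, -1.91 to 0.51) and Mcm5 with 4 and 1 UMIs were within counting error. Markers of other cells moved with this result. Summed T/NK markers stood at 184 CPM in the control (1 of 9 genes at 0) and 14.3 CPM in the D-CAN fibroblasts (5 of 9 at 0), B markers at 129 CPM (1 of 8 at 0) and 7.14 CPM (6 of 8 at 0), and endothelial markers at 302 CPM (0 of 8 at 0) and 11.9 CPM (4 of 8 at 0). Macrophage markers stood at 236 CPM (4 of 10 at 0) and 333 CPM (8 of 10 at 0). Without cells that carried 2 markers of a second class, the difference of the G2/M-positive share was -22.6 points. The median depth of these cells was 926 and 5323.5 UMIs. The part of these markers and of depth in the set levels was not tested.

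SAT endothelial cells carried little of either set. The S set stood at 294 and 298 CPM (log2 ratio 0.02, -0.21 to 0.25) and the G2/M set at 323 and 206 CPM (-0.65, -0.90 to -0.39), of which Hmgb2 made up 165 and 141 CPM. Mki67 had 6 and 2 UMIs and Top2a 11 and 4, Mcm5 stood at 6.38 and 9.01 CPM and Pcna at 38.3 and 61.1 CPM (0.67, 0.08 to 1.28). Slbp stood at 83.8 and 52.1 CPM (-0.68, -1.21 to -0.18) and Pclaf at 16.4 and 2.0 CPM (-2.75). These 3 were the members past 1.5-fold of 11 tested, 1 higher and 2 lower, against 8.51% and 7.22% of all genes. In the D-CAN library Tk1, Gins2, Ccna2, Birc5, Ube2c, Bub1, Tpx2 and Kif11 were at 0, and Plk1 was at 0 in the control. The share of all genes at 0 is not given. The control levels of Birc5 and Ube2c were 3.34-fold a floor of 3 UMIs in the D-CAN library. SAT macrophages, 57 and 28 cells, had a G2/M set of 628 and 1965 CPM (log2 ratio 1.64, 1.34 to 1.96) and an S set of 428 and 331 CPM (-0.37, -0.87 to 0.12). They had Mki67 at 97.5 and 72.4 CPM, Top2a at 37.9 and 186 CPM, Pcna at 48.8 and 62.0 CPM, Mcm5 at 32.5 and 15.5 CPM and Hmgb2 at 249 and 714 CPM. By 1.5-fold, 7 of 9 members tested were higher and 0 lower in SAT macrophages, against 18.2% and 17.9% of all genes. A single D-CAN macrophage held 76.3% of the G2/M UMIs of its class, so this count rests largely on 1 cell. Ube2c (1 and 35 UMIs), Cks2 (5 and 27), Birc5 (6 and 20) and Top2a (7 and 36) reached 20 UMIs through the D-CAN library. Summed B markers in this class stood at 190 CPM (2 of 8 at 0) and 817 CPM (0 of 8 at 0). Endothelial markers stood at 65.0 and 228 CPM and T/NK markers at 65.0 and 41.4 CPM. Their part in the set levels was not tested.

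Genes of the same processes outside the panel were read from 4 lists. In cancer cells 41 of 43 other mitosis genes had a ratio above 0, with a median of 0.31, and 3 (Spc25, Kif22 and Ccnf) were higher by 1.5-fold. Of all 10837 genes tested, 6403 lay above 0 and 3.33% were higher by 1.5-fold. The kinetochore gene Spc25 stood at 8.45 and 15.0 CPM (0.83, 0.44 to 1.22), the kinesin gene Kif22 at 6.12 and 9.97 CPM (0.70, 0.24 to 1.18) and Cdca3 had 0.56, while Ncaph of condensin (-0.23), Knl1 (-0.09) and Mad2l1 (0.04) were at the low end. Of 35 other replication genes 28 lay above 0, with a median of 0.11, 1 was higher (Gins3) and 0 lower. The highest with 100 or more UMIs were Ccne1 (0.32), Dbf4 (0.32) and Chaf1b (0.31), and the lowest Ccne2 (-0.43), Chaf1a (-0.39) and Atad2 (-0.15). Replication-dependent histone genes, whose mRNAs mostly lack the poly(A) tail that the assay primes on, had a median of 0.29 over 8 genes, from Hist1h2ap at 7.01 and 15.4 CPM (1.13, 0.73 to 1.56) to Hist1h1d at 6.30 and 4.16 CPM (-0.59, -1.21 to -0.01).

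Among G1 regulators and CDK inhibitors in cancer cells, with a median of 0.11 over 18 genes, Cdkn1a was the only one past 1.5-fold. It encodes the inhibitor p21, a target of p53, and stood at 32.7 and 51.2 CPM (0.64, 0.44 to 0.85). Myc stood at 49.6 and 54.2 CPM (0.13, -0.05 to 0.31), the D-type cyclin genes Ccnd1 at 139 and 146 CPM (0.07) and Ccnd3 at 40.3 and 38.5 CPM (-0.07), and Cdkn1b, the gene of p27, at 28.3 and 28.3 CPM. Ccnd2 had 1 and 0 UMIs. Cdkn2d (0.29) and Rb1 (0.25) were at the high end and Rbl2 (-0.30) and Cdk6 (-0.09) at the low end.

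In SAT lymphocytes 30 of 35 other replication genes lay below 0, with a median of -0.31, and 6 were lower by 1.5-fold and 0 higher, against 6.67% and 3.63% of all genes. Of all 10096 genes tested in this class, 5439 lay below 0. The primase gene Prim1 stood at 21.4 and 7.92 CPM (-1.42, -2.02 to -0.87), the DNA ligase gene Lig1 at 35.9 and 21.5 CPM (-0.74, -1.11 to -0.37) and the origin recognition gene Orc6 at 30.4 and 21.3 CPM (-0.51), with Rfc4 (0.25), Cdc7 (0.15) and Rpa3 (0.09) at the high end. The 9 histone genes tested were all below 0, with a median of -0.51, among them Hist1h2ae at 23.4 and 12.0 CPM (-0.96), Hist1h2ap (-0.86) and Hist1h4d (-0.51). Other mitosis genes had a median of -0.02 over 38 genes, with 2 higher and 6 lower by 1.5-fold beside the same 3.63% and 6.67%, from Hmmr (0.47), Mad2l1 (0.14) and Pttg1 (0.14) to Prc1 (-0.66), Spc24 (-0.60) and Smc2 (-0.40). Of the G1 list, Myc stood at 86.7 and 122 CPM (0.49, 0.30 to 0.69), which was 74.3 and 78.7 CPM in T/NK cells (0.08, -0.21 to 0.38) and 104 and 191 CPM in B cells (0.87, 0.60 to 1.14). Ccnd2 at 323 and 306 CPM, Ccnd3 at 110 and 105 CPM, Cdkn1b at 149 and 169 CPM and Cdkn1a at 23.6 and 25.4 CPM were near each other, and Ccnd1 was low at 6.78 and 7.31 CPM. In tumor macrophages the other mitosis genes had a median of -0.36 over 19 genes, 1 higher and 7 lower by 1.5-fold (6.11% and 9.08% of all genes), and the other replication genes one of 0.03 over 22 genes.

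In cancer cells the phase calls, made from the 41 members alone, separated positive from negative cells by genes they did not use. In cancer cells the other mitosis list summed to 218 CPM in cells positive for neither set, 1144 CPM in cells positive for the S set alone, 3300 CPM for the G2/M set alone and 3181 CPM for both in the control library. In the D-CAN library the same sums were 217, 1277, 3179 and 3656 CPM. All 43 genes of the list were higher in positive than in negative cells in both libraries, as were all 35 of the other replication list, which summed to 490 and 466 CPM in cells positive for neither and to 2871 and 2638 CPM in cells positive for both. Between cells positive for the S set alone and the G2/M set alone, the replication list differed little in the control library (1641 and 1683 CPM). In the D-CAN library it stood at 2127 and 1637 CPM. Of all genes with at least 10 UMIs, 65.4% in the control and 63.4% in the D-CAN library were higher in positive cells, as were 15 and 14 of 18 genes of the G1 list. Histone genes went from 25.6 and 25.4 CPM to 418 and 479 CPM.

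**Figure D5:**
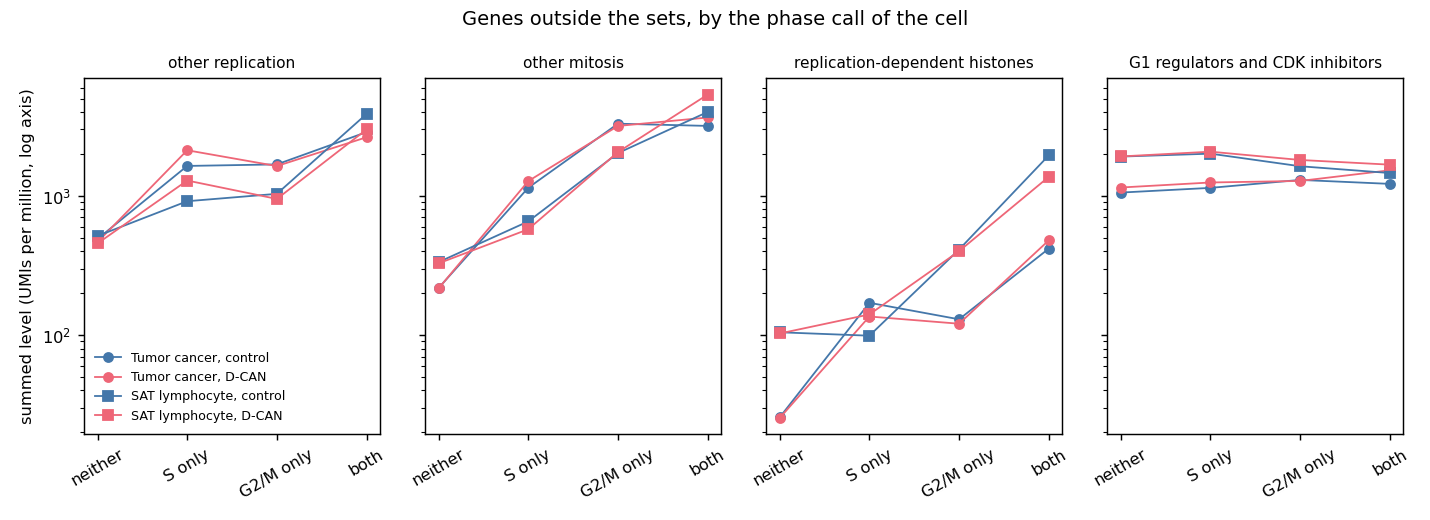
Summed level (CPM) of the gene lists that the phase calls did not use, in cells positive for neither set, the S set alone, the G2/M set alone and both, in the control and D-CAN libraries. The other mitosis list in cancer cells goes from 218 and 217 CPM in cells positive for neither to 3181 and 3656 CPM in cells positive for both.

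Single genes of the G1 list and the G1/S step did not all follow the calls. In cancer cells Ccne1 and Cdkn1a did, and Myc did not. In control cancer cells Ccne1, cyclin E1, stood at 3.15 CPM in cells positive for neither set and 57.5 CPM in cells positive for both, and in the D-CAN library at 4.39 and 44.9 CPM. Cdkn1a stood at 29.8 CPM in cells positive for neither set and 63.1 CPM in those positive for both in the control library, and at 48.0 and 92.4 CPM in the D-CAN library. In cells positive for neither set the libraries differed beyond counting error (26.4 to 33.5 against 43.1 to 53.3), and in cells positive for both the intervals overlapped (43.7 to 88.2 and 72.0 to 117). Myc, in cells positive for neither and for both, stood at 50 and 33.4 CPM in the control and at 53.6 and 55.4 CPM in the D-CAN library. In SAT lymphocytes the other mitosis list went from 334 and 328 CPM in cells positive for neither to 4005 and 5339 CPM in cells positive for both, and the other replication list from 515 and 455 CPM to 3876 and 3001 CPM. The replication list stood at 915 CPM with the S set alone and 1034 CPM with the G2/M set alone in the control library. In the D-CAN library these sums were 1289 and 951 CPM. Histone genes stood at 99.0 and 141 CPM with the S set alone and 105 and 103 CPM with neither. Myc was lower in the cells positive for both (32.2 and 21.9 CPM) than in cells positive for neither (92.2 and 135 CPM). In SAT B cells positive for the S set alone, the replication list stood at 920 CPM in the control and 219 CPM in the D-CAN library. In B cells positive for neither it stood at 478 and 451 CPM, so the S call did not follow this list in D-CAN B cells.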

How the data were processed

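The authors aligned reads of the 10x 3′ v3 libraries to mm10 and deposited raw UMI counts for each cell and gene, made with Cell Ranger 3.1.0 and STAR 2.6 per the submitters' processing notes (the file header of the SAT D-CAN library names 3.0.2). Samples were grouped by their labels, with 1 library per group. Median depth per cell was 1700 to 4855 UMIs. Cells with at least 200 genes were kept (2761, 1487, 2841 and 1897 in tumor control, tumor D-CAN, SAT control and SAT D-CAN) and gated by marker lists as described. No doublet caller was run, and leaving out cells with markers of a second class was an alternative. The interval of a difference of shares combines both exact intervals, and that of a ratio comes from the exact binomial interval of 1 library's UMIs in the sum of both.

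The members and all gene lists were chosen with earlier results of these data known. The text names Mki67, Top2a, Pcna and Mcm5 in every class, the 3 members of each set with the highest CPM, the 5 highest and 5 lowest ratios among members with at least 100 UMIs, members at 0, and for other lists the 3 highest and 3 lowest in cancer cells and SAT lymphocytes. Myc, D-type cyclins, Cdkn1a and Cdkn1b were named where a class had the UMIs for them. Other genes were named after their values were seen. Members at 0 are listed without the share of all genes at 0 in the same class. Positions and promoters are from GRCm38. Python 3.11.15, numpy 2.4.6, scipy 1.17.1, pandas 2.3.3 and matplotlib 3.10.9 were used, and the ratios and the thinning were tested on simulated data. Alternatives were other thinning depths (500 and 2000 UMIs, none), call thresholds, gates, filters on cells and genes, and scalings.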

Additional observations from a re-analysis of the deposited data

Results flagged for a closer look

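In 4 pairs of classes the log2 ratio of D-CAN over control had opposite signs, with counting intervals that excluded 0 on both sides, and with 1 library per group, so that the difference was not tested. The S set had a ratio of 0.28 in tumor fibroblasts and -1.18 in SAT fibroblasts. The first of these values was -0.07 with 80% of marker UMIs required and -0.18 as a mean of each cell's own CPM. The G2/M set had a ratio of 0.66 in tumor endothelial cells and -0.65 in SAT endothelial cells. In the tumor pair 1 cell held 20.3% of the control and another 31.7% of the D-CAN G2/M UMIs. The G2/M set had a ratio of -0.29 in tumor macrophages and 1.64 in SAT macrophages, where 1 cell held 76.3% of the D-CAN G2/M UMIs. The G2/M set also had a ratio of 0.34 in SAT T/NK cells and -0.32 in SAT B cells. The T/NK value was -0.17 as a mean of each cell's own CPM. At equal depth the differences of the G2/M-positive share had the same sign, -0.666 points in T/NK and -1.87 points in B cells, with intervals that included 0.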

How the results depend on the processing

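Of 555 values over 51 results and 19 alternatives, 473 moved by less than their counting error or, for counts of members, stayed within 1.5 times, 78 moved by more and 4 changed sign from a value whose interval excluded 0. Counting also values whose interval included 0, 61 changed sign. Counts of members under an alternative are given without the share of all genes. No paired analysis was possible because the labels carry no replicate numbers and each group is 1 library, so no replicate was left out either. Differences of shares are in percentage points and set levels in log2 ratios, D-CAN over control, and the causes were not tested.

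Without thinning the S-positive and G2/M-positive differences were 16.9 and 15.1 in cancer cells, 4.44 and 3.94 in macrophages, 3.51 and 3.65 in SAT lymphocytes, 3.24 and -9.67 in SAT fibroblasts, 21.7 and 9.75 in SAT endothelial cells, 2.03 and 3.13 in T/NK cells and 4.35 and 3.45 in B cells, and 9.98 for the S set in tumor fibroblasts. At 2000 UMIs the G2/M difference was -6.61 in macrophages, -6.95 in tumor fibroblasts and -6.98 in SAT fibroblasts, and at 500 UMIs -8.96 in SAT fibroblasts. With 1 gene enough for a call, the S difference was -17.2 in SAT fibroblasts, -3.81 in SAT lymphocytes, -4.85 in macrophages, -6.49 in T/NK cells and -6.93 in tumor fibroblasts, and the G2/M difference was -6.47 in SAT endothelial cells, -6.91 in macrophages, 2.0 in B cells, 2.37 in SAT lymphocytes and 2.42 in T/NK cells.

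With 80% of marker UMIs required, the S level in tumor fibroblasts was -0.066, a change of sign, and the G2/M level -0.37 in SAT endothelial, -0.63 in B and 0.39 in cancer cells. With 3 markers required, the S level in tumor fibroblasts was 0.039, and in cancer cells the G2/M level was 0.062, its median 0.073, the S level 0.25 and the S share of member UMIs 2.84, a change of sign, with 5 members higher and 3 lower. With at least 50 UMIs, 2 macrophage members were higher and 3 lower.

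As a mean of each cell's own CPM, the S level was 0.024 in macrophages, -0.15 in tumor endothelial cells, -0.18 in tumor fibroblasts (a change of sign), -0.47 in SAT lymphocytes, -0.36 in SAT endothelial cells, -0.43 in B cells, -0.53 in T/NK cells and -1.69 in SAT fibroblasts. The G2/M level was then -0.11 in macrophages, 0.20 in tumor endothelial cells, -0.27 in tumor fibroblasts, -0.17 in T/NK cells (a change of sign), -0.53 in B cells, -1.04 in SAT endothelial cells and -0.29 in SAT lymphocytes, where its median was -0.51 and 1 member was higher and 18 were lower. In cancer cells 6 members were then higher.

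The other 4 alternatives were chosen after seeing the data. Admitting cancer cells by 3 UMIs of 1 marker gave an S share of member UMIs of -2.16. Leaving out cells with 2 markers of a second class gave an S level of -0.24 in SAT endothelial cells, a G2/M level of 0.41 in tumor fibroblasts, 1.10 in tumor endothelial cells and 0.44 in cancer cells, with a median of 0.44, 7 members higher and an S share of -4.75. Without Slbp, Ung, Hmgb2 and Cks2, the G2/M level was -0.48 in macrophages, -1.56 in SAT endothelial cells, -5.15 in SAT fibroblasts, 0.14 in SAT lymphocytes and 0.60 in T/NK cells, the S level -0.70 in B cells and -1.88 in SAT fibroblasts, and the S share 12.8 in macrophages and -8.01 in SAT lymphocytes. Without the cell with the most UMIs of the set, tumor endothelial cells had -0.22 for S and 0.35 for G2/M, and the G2/M level was -0.35 in tumor fibroblasts and -0.48 in B cells. Depth limits the classes with under 100 cells, where 1 or 2 cells move a share by several points.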

Other observations

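The G2/M UMIs of SAT control fibroblasts lay in a small group of cells, described here after its values were seen. Of the 279 control fibroblasts, 27 had UMIs of at least 4 G2/M genes without thinning, 11 had 2 or 3 and 241 had 0 or 1. Among the 76 D-CAN fibroblasts the counts were 0, 3 and 73. The 27 cells had a median of 1372 UMIs against 820 in the 241 cells and a median of 8 G2/M genes. Collagen genes stood higher in the 27 cells, with Col1a1 at 16003 against 4817 CPM and Col3a1 at 21247 against 9667 CPM, as did Cthrc1 at 1591 against 134 CPM and Nov at 1627 against 83.2 CPM. Genes of adipose stroma did not all go 1 way. Dcn stood lower at 4738 against 10511 CPM, as did Gsn at 235 against 10109 CPM and Apoe at 36.2 against 3701 CPM. Pdgfra at 778 against 310 CPM and Cxcl12 at 904 against 791 CPM were not lower. Pi16, a marker of adipose progenitors, had a UMI in 0 of 27 and 116 of 241 cells. Genes of immune cells were also seen, with Cd74 in 18 of 27 and 53 of 241 cells and Siglech, a gene of plasmacytoid dendritic cells, in 10 of 27 and 0 of 241, while Ptprc was seen in 1 of 27. A lymphocyte marker was seen in 11 of 27 and 89 of 241 cells and a macrophage marker in 7 of 27 and 49 of 241, and their part in the values was not tested.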
